A study of Mus musculus with 12 samples.

Results

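The annexins are a family of proteins that bind acidic membrane phospholipids when calcium is present. The 9 members described here are Anxa1 to Anxa8 and Anxa11, among 19669 genes tested on the arrays that lead this account. They were taken from the family by name, through the RefSeq accession of each probe, and the brightest probe of a gene over all 12 arrays stands for it. The probe was thus chosen by its mean signal, which is the measured value in the rule, and no comparison of the groups enters it. This mattered for Anxa2 and Anxa4, which have 2 probes each, whereas the other 7 have 1. The members were picked with earlier results of these data known.

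The cells were NIH3T3, an established mouse embryonic fibroblast line grown in DMEM with BCS. Each culture received DMSO, the solvent, 50 nM rapamycin or 2 µM PP242 for 18 h, and 4 cultures per treatment were each measured on a one-colour Agilent mouse array. The treatment protocol gives 2 mM PP242 instead, while the design text and the sample characteristics give 2 µM. Rapamycin inhibits the mTOR kinase in its complex mTORC1 by an allosteric route, and PP242 competes with ATP at the kinase and so reaches mTORC2 as well as mTORC1. The question of the series is which genes depend on each complex. The compounds were used at different doses, so differences between them are differences between these treatments. All groups are the same line without any genetic change named in the labels. The design text describes the replicates as independent experiments.

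Annexins share a core of calcium-binding repeats that lies flat on the membrane, and differ in the amino-terminal tail that recruits partners. In fibroblasts they take part in sealing of plasma membrane wounds, in endosome traffic and in links between membrane and actin. Several occur in complexes with small calcium-binding S100 proteins, and some reach the cell surface, where Anxa2 with S100a10 binds plasminogen and Anxa5 binds exposed phosphatidylserine.

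Of the 12 arrays, 8 had a wide signal range and lead the account (DMSO 1, 3 and 4, rapamycin 1, 2 and 4, and PP242 2 and 3). Their share of probes well above background ran from 55.8% to 60.5%, and dividing the 75th percentile of an array's signal by the 25th gave 261 to 420. On the remaining 4 (DMSO 2, rapamycin 3, PP242 1 and PP242 4) the dim probes were raised, with a share of 78% to 97.9% and a ratio of percentiles of 7.12 to 51.1. For the annexins and the called genes of the lists below, values from all 12 arrays are given as well. The arrays lay on 3 slides that each held all 3 groups, and the number of arrays limits the precision. Of 10 fibroblast markers, 9 were well above background on all 8 arrays, Postn being so on 6. Of 20 epithelial, leukocyte, endothelial and muscle markers on the array, 10 had no probe well above background on any of the 8, among them Epcam, Cdh1, Pecam1 and Myod1. The 6 with a probe well above background on at least 2 arrays were Csf1r (8 arrays), Lyz2 and Des (5 each), Krt8 and Ckm (3 each) and Ptprc (2), the general leukocyte marker. Csf1r was lower with PP242 than with DMSO (log2 fold change -0.37 ± 0.09 SE, limma adjusted p = 0.0343) and the fibroblast marker Pdgfrb was higher (0.82 ± 0.17, adjusted p = 0.0168). With all 12 arrays neither was called, at -0.32 for Csf1r and 0.45 for Pdgfrb (adjusted p = 0.796 for both). Their part in the annexin results was not tested. The RNA is from whole cultures, in which fewer cells of a type and less RNA per cell cannot be told apart.

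Levels below are log2 signals relative to the 75th percentile of their own array, so that 0 is the level of that percentile. A level is not compared between genes, since probes differ in how they bind. Differences are log2 fold changes from limma with their standard errors (SE), and a gene is called where the Benjamini-Hochberg adjusted p over all genes tested is under 0.05. All 9 annexins were well above background on all 12 arrays. On the 4 with raised dim probes this says little, since 78% to 97.9% of probes were so there.

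The start regions of Anxa8 and Anxa7, which were both higher with PP242, are shown as the 250 bases before the RefSeq gene start (assembly GRCm38.p6), read 5′ to 3′ on the gene's strand. Capitals mark matches, on either strand, to 6 motifs, which are the TATA box spelled TATAAA, the GC box spelled GGGCGG, the CCAAT box named by its letters, the AP-1 motif spelled TGACTCA, the E-box spelled CACGTG and the FOXO motif spelled GTAAACA. None of these motifs contains another. The Anxa8 region is chr14:34085729-34085978 on the plus strand. The regions of 2 Anxa7 starts, chr14:20480134-20480383 and chr14:20479942-20480191 on the minus strand, overlap.
Anxa8: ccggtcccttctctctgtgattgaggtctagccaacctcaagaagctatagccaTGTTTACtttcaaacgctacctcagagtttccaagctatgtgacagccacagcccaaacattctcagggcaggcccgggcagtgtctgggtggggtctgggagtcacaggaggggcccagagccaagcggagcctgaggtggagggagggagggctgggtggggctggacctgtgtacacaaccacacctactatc
Anxa7, start 1: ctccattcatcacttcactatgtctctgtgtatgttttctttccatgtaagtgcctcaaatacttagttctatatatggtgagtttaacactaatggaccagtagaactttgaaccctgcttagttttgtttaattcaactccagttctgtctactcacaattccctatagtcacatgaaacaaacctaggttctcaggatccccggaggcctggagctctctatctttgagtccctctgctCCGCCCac
Anxa7, start 2: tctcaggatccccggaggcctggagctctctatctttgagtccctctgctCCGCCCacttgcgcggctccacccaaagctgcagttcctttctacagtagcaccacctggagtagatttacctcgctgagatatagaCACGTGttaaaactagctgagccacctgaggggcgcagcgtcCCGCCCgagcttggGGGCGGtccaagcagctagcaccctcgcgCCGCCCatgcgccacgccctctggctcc
The Anxa8 region held 1 match, to the FOXO motif on the opposite strand 196 bases before the start, and 3.17% of the 32851 promoters in the table hold that motif. Its GC content was 58%, against a median of 52.4% over all promoters. The region of start 2 of Anxa7 held 4 GC boxes, a motif found in 32.7% of promoters, and 1 E-box 113 bases before the start, found in 6.02%. Of the 9 annexins, 7 were matched in that table with 9 promoters. Anxa3 and Anxa6 were not matched, so the start of Anxa6, also called higher with PP242, is not shown. Of the other matched annexins, Anxa1 had a TATA box 32 bases before its start and Anxa11 had 3 GC boxes. Anxa2 had a TATA box, 3 GC boxes and 1 AP-1 motif. The promoters of Anxa4 and Anxa5 held 0 matches. TATA boxes occur in 12.4% of all promoters and AP-1 motifs in 4.46%. A match describes letters and not a bound site.

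With rapamycin, Anxa8 was the annexin that rose. Anxa8 is a calcium-dependent phospholipid-binding protein first known as an anticoagulant and is associated with late endosomes. On the DMSO arrays its level was 0.32, 0.03 and 0.35 on replicates 1, 3 and 4, and on the rapamycin arrays it was 1.79, 1.83 and 1.58 on replicates 1, 2 and 4. All rapamycin values of the 8 arrays lay above all DMSO values. The group means were 1.74 ± 0.13 (SD, n = 3) and 0.23 ± 0.18 (SD, n = 3), a log2 fold change of 1.5 ± 0.12 SE (95% interval 1.21 to 1.79), or 2.83-fold, with a limma adjusted p of 0.0395. By p-value it ranked 5 of the 19669 genes.

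The share of genes called in rapamycin against DMSO was 0.0254% in either direction, which is 5 genes, and 0.0203% in the upward direction. The other gene with a symbol among the 5, looked up after the values were seen, was Ak4, an adenylate kinase of mitochondria, at -1.14 ± 0.08 SE (adjusted p = 0.0215). The remaining 3 are known by accession only. Under other settings the size of the Anxa8 difference stayed between 1.05 and 1.58 and its direction did not turn, but it was called under 8 of 22 alternatives. With all 12 arrays it was 1.05 ± 0.40 SE (adjusted p = 0.832), where limma called 0 genes, or 0% of those tested, in this comparison and 452 (1.77%) had an unadjusted p under 0.05. With slide as a block it was 1.49 ± 0.10 SE (adjusted p = 0.27).

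Rapamycin 3 went against the other rapamycin arrays in Anxa8. Its level was -0.11, below the lowest DMSO value. This array had the narrowest signal range, with a ratio of 7.12, and its unscaled Anxa8 signal was 7110, against 4320 to 4970 on the other 3 rapamycin arrays and 1100 to 1550 on the DMSO arrays. Dim probes were raised there as well. The Anxa10 probe read 8480 on rapamycin 3, against 5.73 and 4.89 on rapamycin 1 and 2. The unscaled Anxa8 signal of rapamycin 3 is therefore not read as a rise. With that array alone left out, a setting added after the data were seen, the difference was 1.51 ± 0.14 SE over 11 arrays (adjusted p = 0.0545). Within slides, rapamycin minus DMSO was 1.45 on slide 1, which held none of the arrays with raised dim probes, 1.64 on slide 2 with DMSO 2, and 0.71 on slide 3 with rapamycin 3.

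**Figure D1:**
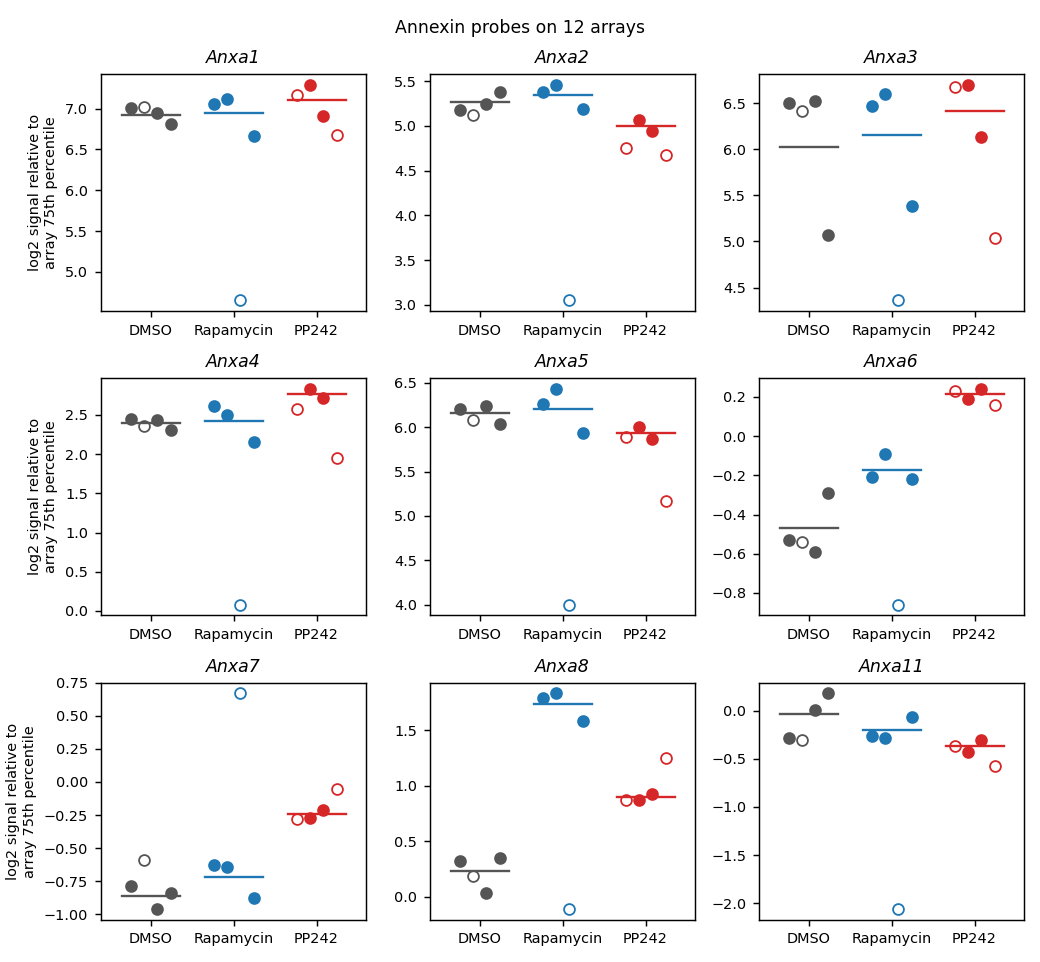
Level of each annexin on every array (vertical axis, log2 signal relative to the array's 75th percentile) by treatment, with filled points for the 8 arrays of wide signal range, open points for the 4 with raised dim probes, and lines at the mean of the filled points. The 3 filled rapamycin points of Anxa8 lie between 1.58 and 1.83, all above the filled PP242 points (0.87 and 0.92), which are above the filled DMSO points (0.03 to 0.35), and the open rapamycin point at -0.11 is below them.

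None of the other 8 annexins was called with rapamycin against DMSO. Anxa6 had the next largest difference, 0.30 ± 0.11 SE (95% interval 0.04 to 0.56, adjusted p = 0.322), and the rest lay between -0.17 (Anxa11) and 0.15 (Anxa7). Groups did not overlap for Anxa6 and Anxa8, that is for 2 of the 9 annexins, against 18.6% of all genes tested. The median over the 9 was 0.07, against -0.02 over all genes. On all 12 arrays the median over the annexins was -0.47, while that over all genes was 0.18.

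With PP242, Anxa6, Anxa7 and Anxa8 were called higher than with DMSO and no annexin was called lower. That is 3 of 9, beside 25.8% of all genes called in either direction and 12.9% called higher, so the count is not read as particular to the family. Anxa6, a large annexin with a duplicated core that acts at endosomes and in membrane repair, had levels of -0.53, -0.59 and -0.29 on DMSO 1, 3 and 4. On PP242 2 and 3 its levels were 0.19 and 0.24. The groups did not overlap, and the rapamycin levels of -0.21, -0.09 and -0.22 lay between them. The difference from DMSO was 0.69 ± 0.12 SE (1.61-fold, 95% interval 0.40 to 0.98, adjusted p = 0.00842).

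Anxa7, the annexin with a long amino-terminal tail also called synexin, which joins membranes in vitro, showed levels of -0.79, -0.96 and -0.84 on the DMSO arrays. Its PP242 levels were -0.27 and -0.21, and its rapamycin levels -0.63, -0.64 and -0.88. PP242 lay above both other groups, which overlapped each other. The difference of PP242 from DMSO was 0.62 ± 0.12 SE (1.54-fold, 95% interval 0.34 to 0.90, adjusted p = 0.0107).

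Anxa8 stood at 0.87 on PP242 2 and 0.92 on PP242 3, above every DMSO array and below the 3 rapamycin arrays of wide range. The difference from DMSO was 0.66 ± 0.14 SE (1.58-fold, 95% interval 0.33 to 0.99, adjusted p = 0.0154). The PP242 and rapamycin differences share their DMSO arrays, so they are set side by side and not correlated.

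On the PP242 arrays with raised dim probes, PP242 1 and PP242 4, Anxa6 was at 0.23 and 0.16, Anxa7 at -0.28 and -0.05 and Anxa8 at 0.87 and 1.25. All of these are above all 4 DMSO arrays of the same gene. Of the DMSO arrays, only DMSO 2 had raised dim probes, and it had the highest DMSO level of Anxa7 (-0.59). Anxa7 was also at 0.67 on rapamycin 3, so its levels on PP242 1 and PP242 4 add little. Over 12 arrays PP242 and DMSO did not overlap for 5 of 9 annexins, among them Anxa2 and Anxa5 on the lower side. Of all genes, 23% did not overlap there (9.17% higher and 13.8% lower). With 12 arrays none of the annexins was called: the differences were 0.70 ± 0.23 SE for Anxa6 (adjusted p = 0.277), 0.59 ± 0.33 for Anxa7 (adjusted p = 0.714) and 0.75 ± 0.40 for Anxa8 (adjusted p = 0.694). In that fit 0.387% of all genes were called and the median over all genes was 0.38, so that Anxa6 lay 0.70 above DMSO where the middle gene lay 0.38 above. Of the 8 arrays, PP242 shares only slide 1 with DMSO. There, PP242 minus DMSO was 0.60 for Anxa6, 0.55 for Anxa7 and 0.53 for Anxa8, and with slide as a block the adjusted p-values were 0.0834, 0.069 and 0.0646. Leaving out PP242 2 or PP242 3, which leaves 1 PP242 array, also ended all 3 calls.

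**Figure D2:**
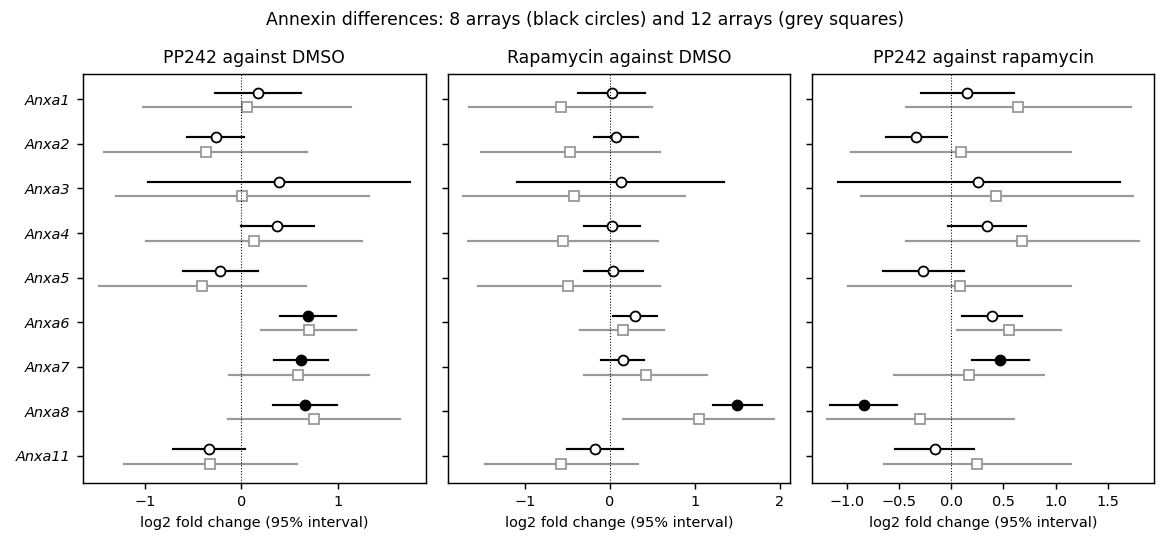
Log2 fold change of each annexin (horizontal axis, with its 95% interval) in the 3 comparisons, from 8 arrays (black circles) and from 12 (grey squares), with filled symbols for an adjusted p under 0.05. With 8 arrays Anxa6, Anxa7 and Anxa8 are filled for PP242 against DMSO, Anxa8 for rapamycin against DMSO, and Anxa7 and Anxa8 for PP242 against rapamycin, whereas with 12 arrays the intervals are wider and no symbol is filled.

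Among annexins not called with PP242, Anxa2, which builds a tetramer with S100a10 and binds actin and plasminogen, had levels of 5.18, 5.25 and 5.38 with DMSO. Its PP242 levels were 5.07 and 4.94, both lower than every DMSO value. The difference was -0.26 ± 0.12 SE (95% interval -0.56 to 0.03, adjusted p = 0.168), and the second Anxa2 probe gave -0.16. On PP242 1 and 4 the level was 4.75 and 4.68. Anxa5, the phosphatidylserine-binding annexin used to label dying cells, had levels of 6.20, 6.24 and 6.04 with DMSO and 6.0 and 5.87 with PP242, so the groups did not overlap. Its difference was -0.22 ± 0.16 SE (95% interval -0.61 to 0.17, adjusted p = 0.368).

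Anxa11, whose long tail ties RNA granules to lysosomes, had levels of -0.28, 0.01 and 0.18 with DMSO and -0.43 and -0.30 with PP242. The difference was -0.34 ± 0.16 SE (95% interval -0.71 to 0.04, adjusted p = 0.173). Over 22 alternatives it ran from -0.46 to -0.23 and was called under 1. Anxa4, which aggregates membranes and is abundant in epithelia, had levels of 2.45, 2.43 and 2.31 with DMSO and 2.83 and 2.71 with PP242, again without overlap. Its difference was 0.37 ± 0.16 SE (95% interval 0 to 0.75, adjusted p = 0.135), and its second probe gave 0.47. Anxa1, the glucocorticoid-induced annexin that signals through formyl peptide receptors, overlapped between the groups. Its difference was 0.17 ± 0.18 SE (95% interval -0.27 to 0.62, adjusted p = 0.545). In all, PP242 and DMSO did not overlap for 7 of 9 annexins (Anxa4, Anxa6, Anxa7 and Anxa8 higher, Anxa2, Anxa5 and Anxa11 lower), beside 59% of all genes (29.8% higher and 29.2% lower). The median over the 9 annexins was 0.37, against -0.01 over all genes, and was 0.06 with 12 arrays.

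PP242 and rapamycin differed in Anxa8 and Anxa7, in opposite directions. Anxa8 was lower with PP242 by a log2 difference of -0.84 ± 0.14 SE (1.79-fold, 95% interval -1.17 to -0.52, adjusted p = 0.0119), with no overlap between the groups. Anxa7 was higher by 0.47 ± 0.12 SE (1.39-fold, 95% interval 0.20 to 0.75, adjusted p = 0.043). These are 2 of 9 annexins, beside 13.9% of all genes (6.8% higher and 7.08% lower). Anxa6 was at 0.39 ± 0.12 SE (95% interval 0.10 to 0.68, adjusted p = 0.0837), Anxa2 at -0.34 ± 0.12 (adjusted p = 0.128) and Anxa4 at 0.34 ± 0.16 (adjusted p = 0.206). Groups did not overlap for 6 of 9 annexins, beside 53.4% of all genes. On slide 1 PP242 minus rapamycin was -0.92 for Anxa8 and 0.36 for Anxa7. On slide 2, where PP242 4 has raised dim probes, it was -0.75 and 0.51. On slide 3, where rapamycin 3 and PP242 1 have raised dim probes, it was 0.14 and -0.17, opposite in sign. With 12 arrays Anxa8 was at -0.30 ± 0.40 SE (adjusted p = 1) where the median over all genes was 0.26, and limma called 0 genes in this comparison, with 1058 (4.14%) at an unadjusted p under 0.05.

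**Figure D3:**
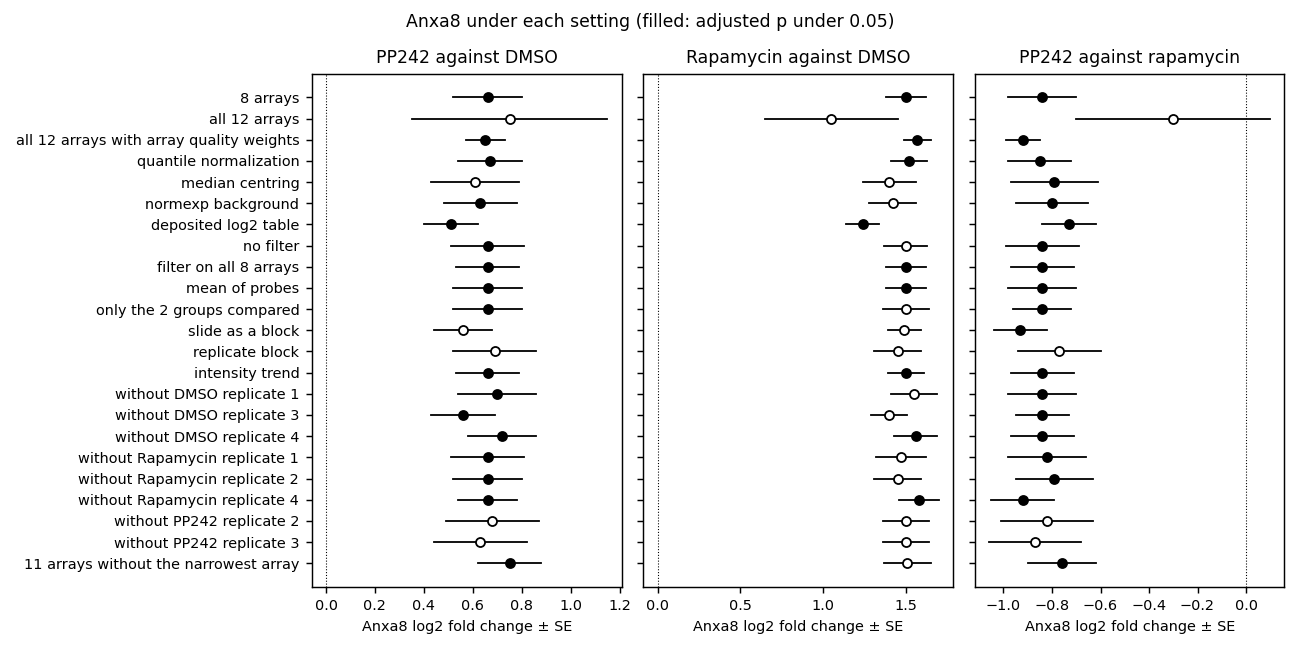
Log2 fold change of Anxa8 with its standard error (horizontal axis) in each comparison, for the 8 arrays (top) and each other setting, with filled points for an adjusted p under 0.05. The values run from 1.05 to 1.58 for rapamycin against DMSO, from 0.51 to 0.75 for PP242 against DMSO and from -0.93 to -0.30 for PP242 against rapamycin, and many of the rapamycin points are open.

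Leaving rapamycin 3 aside, Anxa3 was lowest in the fourth replicate of every treatment. Anxa3 is a membrane-associated annexin also known as a placental anticoagulant protein. Its level was 5.07 on DMSO 4, 5.39 on rapamycin 4 and 5.04 on PP242 4, which is outside the 8 arrays. The remaining 6 of the 8 held 6.13 to 6.70, with no overlap between these sets of arrays. Rapamycin 3 was lower still, at 4.36, as it was for several other annexins. PP242 against DMSO was 0.39 ± 0.56 SE (95% interval -0.97 to 1.75, adjusted p = 0.664) and rapamycin against DMSO 0.13 ± 0.50 SE. These fits did not pair the replicates. With the replicate number as a block, Anxa3 was at -0.13 for PP242 against DMSO, and no annexin was called in any comparison. In Anxa1 the fourth replicates were at 6.81, 6.66 and 6.67, which were also the lowest of their treatments if rapamycin 3 (4.65) is set aside. Anxa1 and Anxa3 correlated at r = 0.83 over the 8 arrays, as a description of arrays that share slides and scaling.

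**Figure D4:**
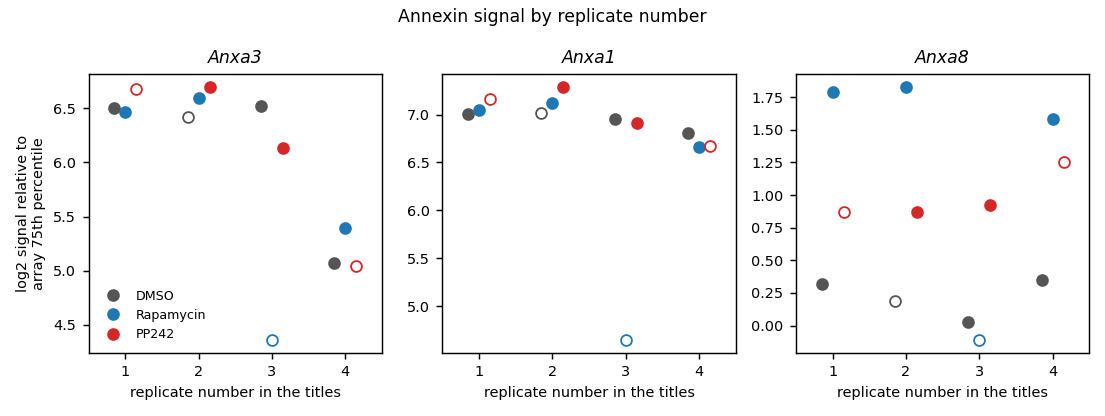
Level of Anxa3, Anxa1 and Anxa8 (vertical axis, log2 signal relative to the array's 75th percentile) by the replicate number of the titles, coloured by treatment, with open points for the arrays with raised dim probes. Anxa3 is between 5.04 and 5.39 in the fourth replicate of all 3 treatments, and Anxa8 is ordered rapamycin, PP242, DMSO in replicates 1, 2 and 4.

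Across the 8 arrays the other pairs with the closest profiles were Anxa6 with Anxa7 (r = 0.91) and Anxa4 with Anxa7 (0.85), and the most opposed pair was Anxa4 with Anxa11 (-0.76). Anxa8 was not close to another annexin, its highest value being 0.44 with Anxa6. Among 12330 genes with a symbol, those most like Anxa6 were Nudt8 (r = 0.9946) and Npdc1 (0.9936), those most like Anxa7 were Clk2 (0.9943) and Hps1 (0.9934), and those most like Anxa8 were Csrp1 (0.962) and Itgb5 (0.9514). With 8 arrays in 3 groups such values describe the profiles and are not tests.

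Of the annexins outside the 9, Anxa9, which lacks the usual calcium-binding residues, rose with PP242. Its levels were -2.27, -2.30 and -2.04 with DMSO and -1.75 and -1.59 with PP242, a difference of 0.54 ± 0.12 SE (adjusted p = 0.0223). It was called under 9 of 22 alternatives, and not with 12 arrays (0.36, adjusted p = 0.796) or with slide as a block (0.49, adjusted p = 0.157). Anxa13 was at 0.28 ± 0.53 SE (adjusted p = 0.746). Anxa10 was well above background on 1 of the 8 arrays and was not tested.

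Genes that work with annexins were taken as 8 lists of 64 genes, chosen with earlier results of these data known. Their counts for PP242 against DMSO stand beside 25.8% of all genes called, 12.9% higher and 12.9% lower, and none is read as particular to its list. The S100 proteins gave 1 lower gene and 0 higher of 6 with PP242 against DMSO. It was S100a10, the partner of Anxa2, whose levels were 5.91, 5.94 and 6.01 with DMSO, 5.89, 6.0 and 6.03 with rapamycin, and 5.65 and 5.39 with PP242. PP242 lay below both other groups. The difference was -0.44 ± 0.11 SE from DMSO (adjusted p = 0.0316) and -0.45 ± 0.11 SE from rapamycin (adjusted p = 0.0435). It was called against DMSO under 7 of 22 alternatives and ranged from -0.56 to -0.26, and against rapamycin it turned to 0.20 (adjusted p = 1) with all 12 arrays. S100a4 and S100a6, also S100 partners of annexins, were at -0.20 ± 0.21 and -0.07 ± 0.23 against DMSO (adjusted p = 0.551 and 0.86).

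In plasminogen activation, 1 gene was lower and 0 higher of 5 with PP242 against DMSO. Plaur, the receptor that holds urokinase at the cell surface, had levels of 3.38, 3.26 and 3.22 with DMSO and 2.79 and 2.69 with PP242, without overlap. The difference was -0.55 ± 0.13 SE (adjusted p = 0.0255; -0.79 and 0.765 with 12 arrays), and against rapamycin -0.77 ± 0.13 SE (adjusted p = 0.0141; -0.50 and 1 with 12 arrays). Plat, the tissue-type activator, was at 0.62 ± 0.31 (adjusted p = 0.197) and Plau, the urokinase-type activator, at -0.83 ± 0.34 (adjusted p = 0.13). A second gene called lower with PP242 than with rapamycin was Plg, named after its values were seen. It was not well above background on any DMSO or PP242 array of the 8 and passed the filter only through rapamycin. Of the rapamycin arrays, 1 gave a usable value well above background, so no fold or p is given for it.

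Membrane repair genes gave 2 higher and 0 lower of 11 with PP242 against DMSO. Their median was 0.37, against -0.01 over all genes, and with 12 arrays it was 0.08, against 0.38. Ehd2, an ATPase of caveolae, had levels of 2.19, 2.11 and 2.18 with DMSO and 2.80 and 2.84 with PP242, a difference of 0.66 ± 0.09 SE (adjusted p = 0.00415; 0.51 and 0.796 with 12 arrays). Chmp2a, an ESCRT-III subunit that closes membrane wounds, was at 0.44 ± 0.11 SE (adjusted p = 0.0288; 0.24 and 0.832 with 12 arrays). Myof, the ferlin myoferlin, was at 0.31 ± 0.11 (adjusted p = 0.0762). Of the other proteins that bind phospholipids through C2 domains, 1 of 11 was higher, Syt11, a synaptotagmin, at 0.88 ± 0.16 SE (adjusted p = 0.00899; 0.81 and 0.19 with 12 arrays), and 0 were lower. Cpne1, a copine, was at -0.42 ± 0.15 (adjusted p = 0.0878).

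Genes that move phosphatidylserine across the membrane gave 1 higher and 1 lower of 8. Plscr3, a scramblase-family protein of mitochondria, was at 0.82 ± 0.18 SE (adjusted p = 0.0184; 0.63 and 0.796 with 12 arrays). Xkr8, the scramblase activated in apoptosis, was at -0.47 ± 0.12 SE (adjusted p = 0.0334), but with 12 arrays its sign turned, to 0.37 (adjusted p = 0.841). Ano6, a calcium-activated scramblase, was at 0.24 ± 0.13 (adjusted p = 0.235). The remaining binding partners gave 0 called of 7, with Ahnak at 0.44 ± 0.32 (adjusted p = 0.373) and Pdcd6 at -0.21 ± 0.09 (adjusted p = 0.151). Neither formyl peptide receptor on the array passed the filter on dim probes. With rapamycin against DMSO, 0 genes were called by limma in any of the lists, beside 0.0254% of all genes and 13.1% at an unadjusted p under 0.05. Of the genes called with PP242, Xkr8 (-0.56 ± 0.11 SE), Ehd2 (0.41 ± 0.08) and Chmp2a (0.30 ± 0.10) had the same sign with rapamycin. They did not overlap with DMSO, as 18.6% of all genes. Syt11 (0.21 ± 0.14), Plscr3 (0.17 ± 0.16) and Anxa9 (0.21 ± 0.11) had the same sign but overlapped. S100a10 (0.02 ± 0.10) and Plaur (0.22 ± 0.12) had the opposite sign. Both differences subtract the same DMSO arrays, which favours the same sign, so these signs are not read as a shared effect. With 12 arrays 0 list genes were called for PP242 against DMSO.

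**Figure D5:**
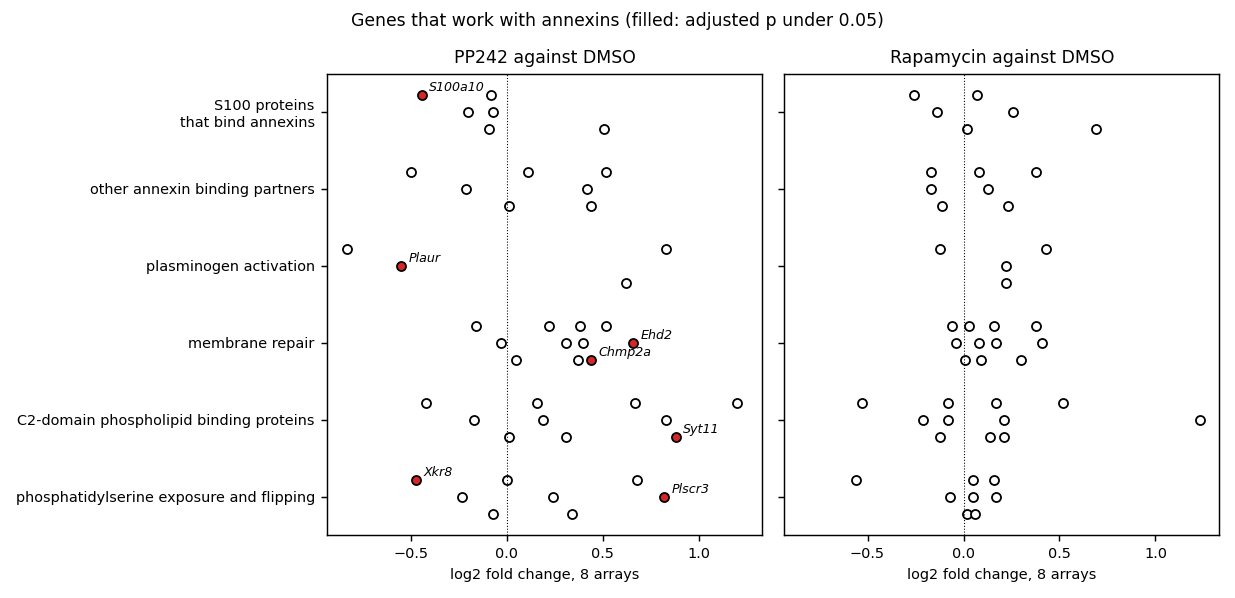
Log2 fold change (horizontal axis) of each measured gene in 6 lists of genes that work with annexins, for PP242 against DMSO and rapamycin against DMSO on 8 arrays, with filled points for an adjusted p under 0.05. For PP242, Plaur, S100a10 and Xkr8 are filled on the lower side and Ehd2, Chmp2a, Syt11 and Plscr3 on the higher side, and no point is filled for rapamycin. Plg is drawn in neither panel and Cpne7 not for PP242, because a group compared there has no array on which their probe is detected well above background.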

How the data were processed

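RNA of 12 NIH3T3 cultures was amplified and labelled with Cy3, per the labels' protocols. The deposited scanner files hold spot intensity values; per the file headers, Agilent Feature Extraction 10.5.1.1 background-subtracted and detrended the processed signal within each array (the submitters' processing notes name version 10.1). The authors also deposited log2 values of the whole series; these, of unstated normalization, have column medians of 8.537 to 8.559 and were used as an alternative only; per the file headers, gene annotation is of build mm9, from which no coordinate is printed.

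Control spots and outlier spots (0.159% to 7.6% per array) were left out, log2 processed signals were centred on each array's 75th percentile, and spots of a probe were averaged. A probe had to be well above background on 2 or more of 8 arrays (4 or more of 12), and the brightest probe per gene was kept. Limma 3.58.1 (R 4.3.3; version 1.17.8 of the data.table package) fitted the 3 groups together, with two-sided tests and Benjamini-Hochberg adjustment over 19669 genes (25581 with 12 arrays). On simulated arrays the fit returned the mean size of the largest changes put in. All changes put in exceeded the called annexin differences of PP242 from DMSO, and no slide or replicate effects were simulated. The check therefore does not bear on those calls. The 8 arrays are those whose 75th percentile exceeded 100 times the 25th, a rule that uses no gene or comparison. Members, lists and that rule were chosen with earlier results of these data known.

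Named genes are all annexins, in each list up to 4 called for PP242 against DMSO by adjusted p and up to 2 others by level, and for each called annexin the 2 genes of highest Pearson correlation. Some genes of these lists are not reported here. Alternatives were other array sets, weights, normalization, background correction, filters, probes, blocks and leaving out each array. Promoters are from RefSeq (GRCm38.p6). Sequences and drawings were handled in Python 3.11.15 with numpy 2.4.6, matplotlib 3.10.9 and pandas 2.3.3.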

Additional observations from a re-analysis of the deposited data

Results flagged for a closer look

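In 7 of 27 combinations of an annexin and a treatment, 1 of the 4 arrays lay far from the others by Dixon's criterion, which chance meets in about 1 in 20. Rapamycin 3 was that array in 4 of them. It was the lowest rapamycin array for Anxa2 (3.05, the next at 5.19), Anxa8 (-0.11, the next at 1.58) and Anxa11 (-2.06, the next at -0.28), and the highest for Anxa7 (0.67, the next at -0.63). PP242 4 was the lowest PP242 array for Anxa5 (5.17, the next at 5.87) and the highest for Anxa8 (1.25, the next at 0.92). Both arrays are among the 4 with raised dim probes and are not among the 8 that lead. DMSO 4, which is among the 8, was the lowest DMSO array for Anxa3 (5.07, the next at 6.42).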

How the results depend on the processing

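For PP242 against DMSO, 3 annexins were called with 8 arrays, 0 with all 12, with slide as a block or with the replicate block, 1 with median centring and 5 with array quality weights on 12 arrays, and 0 to 4 when each array was left out in turn. Of all genes, 25.8% were called with 8 arrays, 0.387% with 12, 7.05% with slide as a block and 20% with the replicate block. Median centring called 20.9% of all genes and weights 41.6%. The annexin median of 0.37 was 0.06 with 12 arrays and with 11, 0.02 with the replicate block and 0.10 to 0.43 when each array was left out. It was 0.12 without DMSO 4 and 0.10 without PP242 2. For rapamycin against DMSO, 1 was called, 2 with weights and 0 with 12 arrays, 11 arrays, median centring, normexp background, no filter, only the 2 groups compared, slide as a block or the replicate block. Leaving out each array gave 0 to 1, and Anxa8 was called in 2 of those 8 fits, without DMSO 4 and without rapamycin 4. Of all genes, 0.0254% were called with 8 arrays, 14.6% with weights and 0% under each setting just listed with 0 annexins. The annexin median of 0.07 became -0.47 with 12 arrays, and -0.02 to 0.18 with an array left out. For PP242 against rapamycin, 2 were called, 6 with weights, 0 with 12 arrays or the replicate block, and 1 with median centring, normexp background, the deposited log2 table, no filter, only the 2 groups compared, slide as a block or 11 arrays; leaving out each array gave 0 to 3. Of all genes, 13.9% were called with 8 arrays, 35.5% with weights, 0% with 12 arrays and 4.98% with the replicate block. The settings with 1 annexin called ran from 2.6% (slide as a block) to 11.9% (the deposited log2 table). The annexin median of 0.15 was -0.15 with the replicate block, -0.02 with 11 arrays and -0.09 to 0.35 with an array left out (-0.09 without rapamycin 4, -0.04 without PP242 2, 0.35 without PP242 3). S100a10 for PP242 against rapamycin turned to 0.20 with 12 arrays. The cause of these changes was not tested. No called annexin difference changed sign: over 22 alternatives Anxa6 for PP242 against DMSO ranged from 0.52 to 0.78 (called in 17), Anxa7 from 0.42 to 0.66 (16) and Anxa8 from 0.51 to 0.75 (16), and for PP242 against rapamycin Anxa8 ranged from -0.93 to -0.30 (18) and Anxa7 from 0.17 to 0.52 (6).

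Over all genes, 5083 were called for PP242 against DMSO, 99 with 12 arrays, 10631 with weights, 1386 with slide as a block and 3931 with the replicate block. No annexin was called under the replicate block, where 20% of all genes were, against 25.8% in the main fit. For rapamycin against DMSO 5 were called, 3746 with weights, 66 with a filter on all 8 arrays, 62 with an intensity trend, 22 after quantile normalization and 9 from the deposited table. For PP242 against rapamycin 2730 were called, 0 with 12 arrays, 9090 with weights, 511 with slide as a block and 979 with the replicate block. The weights ran from 0.0148 (rapamycin 3) to 13.4 (PP242 2). Among the 8 arrays, deviations within groups correlated at 0.45 for DMSO 1 with rapamycin 1 and at 0.62 for DMSO 4 with rapamycin 4. Differently numbered pairs of DMSO and rapamycin arrays ran from -0.47 to 0.39. Same-numbered pairs with PP242 were at 0.12 (DMSO 3) and -0.25 (rapamycin 2). The deviations of the 2 PP242 arrays mirror each other, so these pairs cannot decide whether the numbers pair the samples. The main fit did not pair them, and a pairing by number was not tested beyond the replicate block. Under the replicate block Anxa3 was at -0.13 ± 0.21 SE for PP242 against DMSO.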
